A study of Mus musculus with 217 samples.

Results

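The dorsomedial striatum (DMS), the part of the dorsal striatum associated with goal-directed action, was compared between the early light phase and the early dark phase. The libraries were chosen by the time in their labels: 12 DMS libraries from ZT2 and 11 from ZT14, 23 of the 217 libraries of the series. ZT counts the hours after lights on, so that ZT2 falls in the light and ZT14 lies 2 h after lights off. The ZT2 group held 6 females and 6 males and the ZT14 group 5 females and 6 males. Every library came from a separate adult C57BL/6J mouse aged about 10 weeks, kept in 12 h of light and 12 h of dark with free access to food, and from bilateral 1 mm punches of tissue. No treatment or genetic change was given to any group. All 12101 genes of the DMS table entered the comparison.

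Daily gene expression rests on a feedback loop. The transcription factors encoded by Arntl (BMAL1), Clock and Npas2 bind E-boxes and switch on Per, Cry, Nr1d and Dbp family genes, whose proteins in turn repress or modulate the loop, so that Arntl and its targets peak at opposite times of day. Mice are active in the dark, and body temperature, corticosterone and feeding add their own daily signals to that loop in the brain.

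E-box letters stood close to the start of several clock genes that were higher at ZT14. The stretches below come from genes called higher at ZT14 and were chosen because they hold E-box or D-box letters. They were read 5′ to 3′ on the strand of the gene from RefSeq promoter windows (GRCm38.p6, 250 bases before to 50 after the start), with E-box letters (CACGTG) and D-box letters (TTATGTAA or TTACGTAA, in either orientation) in capitals.
Ciart (chr3:95882255-95882356, minus strand): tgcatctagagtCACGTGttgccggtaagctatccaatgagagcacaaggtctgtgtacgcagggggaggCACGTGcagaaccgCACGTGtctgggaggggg
Per1 (chr11:69098763-69098808, plus strand): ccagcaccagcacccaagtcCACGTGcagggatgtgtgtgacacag
Tef (chr15:81811256-81811301, plus strand): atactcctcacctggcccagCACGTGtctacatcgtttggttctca
Per3 (chr4:151044804-151044882, minus strand): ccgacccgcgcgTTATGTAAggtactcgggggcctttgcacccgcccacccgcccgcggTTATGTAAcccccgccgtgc
Coq10b (chr1:55052596-55052709, plus strand): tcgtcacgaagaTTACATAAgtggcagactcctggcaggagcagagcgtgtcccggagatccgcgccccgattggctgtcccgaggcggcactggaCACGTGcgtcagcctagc

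In the GENCODE annotation of GRCm38 none of these stretches lies in an exon of its own gene. The Per1 and Tef stretches are intronic to longer transcripts of the same genes. The Ciart, Per3 and Coq10b stretches lie within the spans of C920021L13Rik, Camta1 and E330011M16Rik, the last in an exon. The Ciart stretch holds 3 E-boxes within 102 bases, and the Per3 stretch 2 D-boxes, the sites of the DBP, TEF and HLF proteins. A window was matched by symbol for 9209 genes (76.1% of the table). E-box letters, searched on both strands, occurred in 12.0% of all windows, in 13.9% of the 251 windows of genes called higher at ZT14 and in 11.7% of the 266 of genes called lower. D-box letters occurred in 0.825% of all windows, in 1.99% of the higher set and in 1.13% of the lower set. Of the clock output and repressor genes with a window, 4 of 8 held an E-box, and of the core clock genes 2 of 11 (18.2%). Among named genes not shown, E-box letters stood in windows of Bhlhe41, Cipc, Klf15 and Sv2b, called higher. They also stood in windows of Pim1, Creb5, Calr and Hnrnpd, called lower, and of Cry1, not called. These matches describe letters and not occupied sites.

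Values are log2 of normalised counts plus 1. Differences are ZT14 minus ZT2 from a limma fit with terms for sex and for a library class, and p-values are Benjamini-Hochberg adjusted over all genes, with 0.05 as the threshold. The class splits libraries by the share of 2 mitochondrial ribosomal RNAs (mt-Rnr1 and mt-Rnr2) in the summed values. That share was 19.01 to 29.9% in 13 low-class libraries and 39.2 to 52.6% in 10 high-class libraries. The labels do not name the classes. Animals numbered 31 or above gave 8 of the 10 high-class libraries and 0 of the 13 low-class ones. That split of the labels, below 31 against 31 and above, is the range of animal numbers used further on. Class and time were unevenly crossed, with 9 low and 3 high libraries at ZT2 against 4 low and 7 high at ZT14, so the high class is thin at ZT2. The class itself was large: 7762 genes (64.1%) differed between the classes in the same fit. Total depth over the listed genes was 36652198 to 53144675 reads per library, of which 14.6 to 37.6 M fell outside the 3 most abundant genes.

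Striatal identity was clear in all 23 libraries, since Ppp1r1b (DARPP-32), a defining marker of medium spiny neurons, lay between 15.07 and 15.48. Markers of neighbouring tissue varied between punches. Slc17a7, the vesicular glutamate transporter of cortical neurons, ranged from 5.75 to 12.34, and Ttr, the transthyretin gene of choroid plexus, from 0.00 to 16.12. Xist, the RNA of the inactive X chromosome, lay at 12.17 or above in all 11 female libraries and at 9.60 or below in the 12 male libraries. The highest male value was in ZT14 male 23, with the next male at 7.44. Without that library 229 genes were higher and 234 lower at ZT14.

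At ZT14, 659 of 12101 genes (5.45%) differed from ZT2: 317 (2.62%) were higher and 342 (2.83%) lower. Most differences were small, with a median fold of 1.22 among the called genes. Only 57 called genes exceeded 1.5-fold, 39 of them higher and 18 lower, and 4 exceeded 2-fold: Ciart, Ccn2, Zbtb16 and Rbm3. In the deposited values, without the sex and class terms, the 2 groups of libraries did not overlap at all for 27 genes. Of these, 18 were higher (0.149% of the table) and 9 lower (0.0744%). The 18 were the clock genes Ciart, Dbp, Tef, Nr1d2 and Bhlhe40 together with Rbm3, Tsc22d3, Coq10b, Ano2, Mthfd1l, Kcna5, Narf, Dclk1, Kcnh5, Zfp189, Epop, Ppp1r15b and Fzd2. The 9 were Arntl, Inhba, Ntng1, Nrg1, Lman2l, Ap1m1, Chst15, Spred3 and Zfp580.

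**Figure D1:**
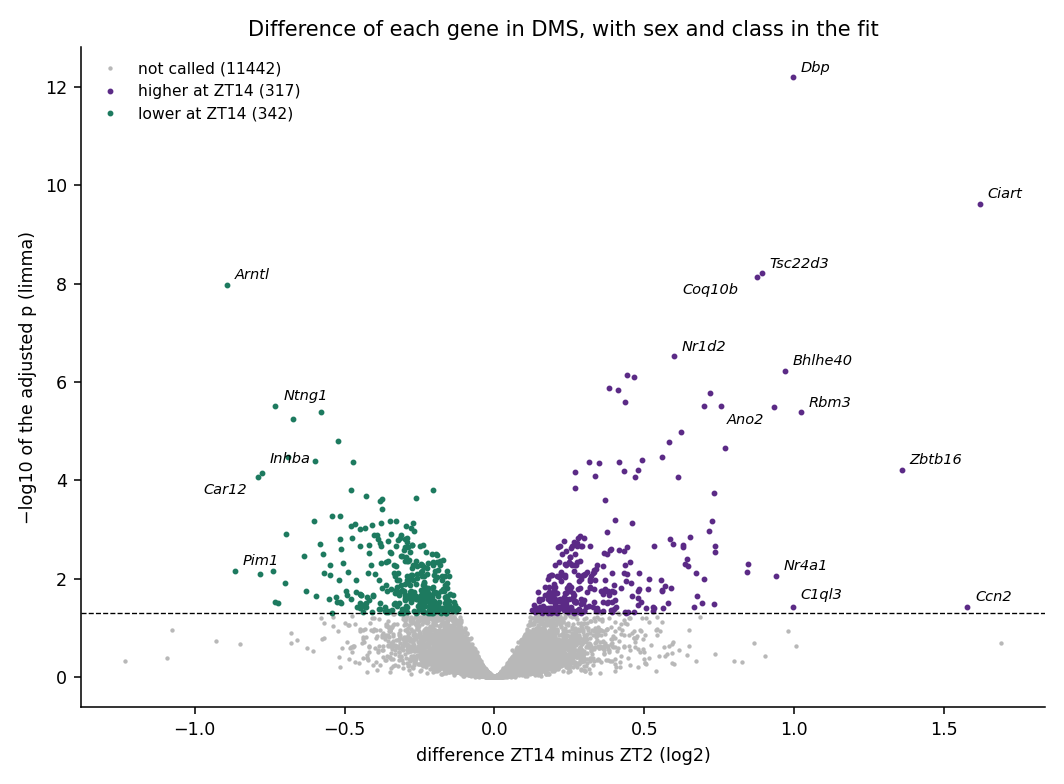
Each point is 1 of 12101 genes, with the ZT14 minus ZT2 difference (log2) on the x axis and the negative log10 of the adjusted p from limma on the y axis; the dashed line is the threshold of 0.05. Dbp and Ciart stand highest on the right (1.00 and 1.62) and Arntl highest on the left (-0.89), while most of the 659 called genes lie within 0.5 of 0.

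How many genes were called depended on how the libraries were scaled and on the class term. Without the class term 1269 genes (10.5%) were called, 573 higher and 696 lower, and 521 of the 659 were among them. When each library was instead scaled to an equal sum, 61 genes were higher and 357 lower, so the share of higher genes among the calls went from 48.1 to 14.6%, with a shift of -0.08 in the median of all genes. Leaving out ZT2 male 31, the single high-class male of ZT2, lowered the count of higher genes from 317 to 202. In that fit 228 genes were lower. All 659 called genes kept their sign in both sexes and in both classes when each was given its own difference. This agreement is no independent check, since the genes were chosen by their difference over the same libraries.

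The negative limb of the clock and its outputs stood high at ZT14 and Arntl stood low. Of 12 core clock genes 6 were higher and 2 lower, and of 10 output and repressor genes 7 were higher and none lower. The median differences of those lists were 0.18 and 0.40, against -0.003 over all genes tested. Over all genes 2.62% were higher and 2.83% lower, and the same shares stand beside the list counts that follow.

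Ciart (chr3:95878503-95882251), which encodes a repressor of the CLOCK:BMAL1 complex, changed most. It lay at 6.72, 7.36 and 7.89 (lowest, median and highest library) at ZT2 and at 8.61, 8.87 and 9.41 at ZT14. Every ZT14 library was above every ZT2 library, a difference of 1.62 ± 0.11 (SE) or 3.07-fold (limma, adjusted p = 2.39e-10). Dbp (chr7:45705088-45710203), a D-box activator driven by E-boxes, went from 11.13, 11.32 and 11.45 to 12.10, 12.27 and 12.46. Its libraries were so tightly grouped that it gave the smallest p of the table, with a difference of 1.00 ± 0.05 (limma, adjusted p = 6.44e-13). Arntl (chr7:113207465-113314126), the obligate positive factor, moved the other way. It fell from 10.56, 10.81 and 10.95 to 9.58, 9.93 and 10.33, with no overlap and a difference of -0.89 ± 0.07 (limma, adjusted p = 1.07e-08).

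The 3 Period genes, which encode the core repressors, rose by similar amounts. Per1 was at 10.80, 11.54 and 11.80 at ZT2 and at 11.72, 11.93 and 12.49 at ZT14, a difference of 0.72 ± 0.08. Per2 differed by 0.73 ± 0.11 and Per3 by 0.61 ± 0.09. For all 3 the ranges of the 2 times overlapped. The 3 high-class libraries of ZT2 held its lowest Per1 and Per2 values, and the class term was -0.41 for Per1 and -0.45 for Per2 (high minus low, log2). Within each class Per1 was higher at ZT14, by 0.59 ± 0.10 in the low class and by 0.88 ± 0.11 in the high class. Cry2, a partner of the Period proteins, rose by only 0.27 ± 0.04, from a median of 11.87 to 12.06, and Cry1 did not pass (-0.05 ± 0.08).

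Among the nuclear receptors that repress Arntl, Nr1d2 (REV-ERBβ) rose by 0.60 ± 0.06. Its ZT2 libraries reached 11.65 and its ZT14 libraries started at 11.79. Nr1d1 (REV-ERBα) differed by 0.43 ± 0.09, with libraries of ZT14 from 10.46 to 11.49 spanning the whole ZT2 range of 10.47 to 10.85. Rora and Rorb, which encode the activators that compete for the same sites, did not pass (0.09 ± 0.05 and -0.03 ± 0.06). Npas2, the forebrain counterpart of Clock, fell by 0.38 ± 0.06 (limma, adjusted p = 0.000233), and Clock itself did not pass (-0.11 ± 0.05, adjusted p = 0.232).

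Of the other output and repressor genes 5 were higher. Bhlhe40 and Bhlhe41 (DEC1 and DEC2), repressors that bind E-boxes, rose by 0.97 ± 0.10 and 0.58 ± 0.07. Tef and Hlf, the D-box factors related to Dbp, rose by 0.44 ± 0.05 and 0.35 ± 0.05. Tef was separated between the times (at most 13.19 at ZT2, at least 13.42 at ZT14) and Hlf was not. Cipc, a further CLOCK inhibitor, rose by 0.29 ± 0.05. Usp2, Wee1 and Nfil3 did not pass, with differences of 0.13 ± 0.07, 0.17 ± 0.10 and -0.09 ± 0.12. None of 12 clock kinase and ubiquitin genes passed, and their median difference was -0.03. With equal sums the calls of Cry2, Nr1d1, Hlf and Cipc were lost (limma, adjusted p = 0.125, 0.0768, 0.0555 and 0.101).

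**Figure D2:**
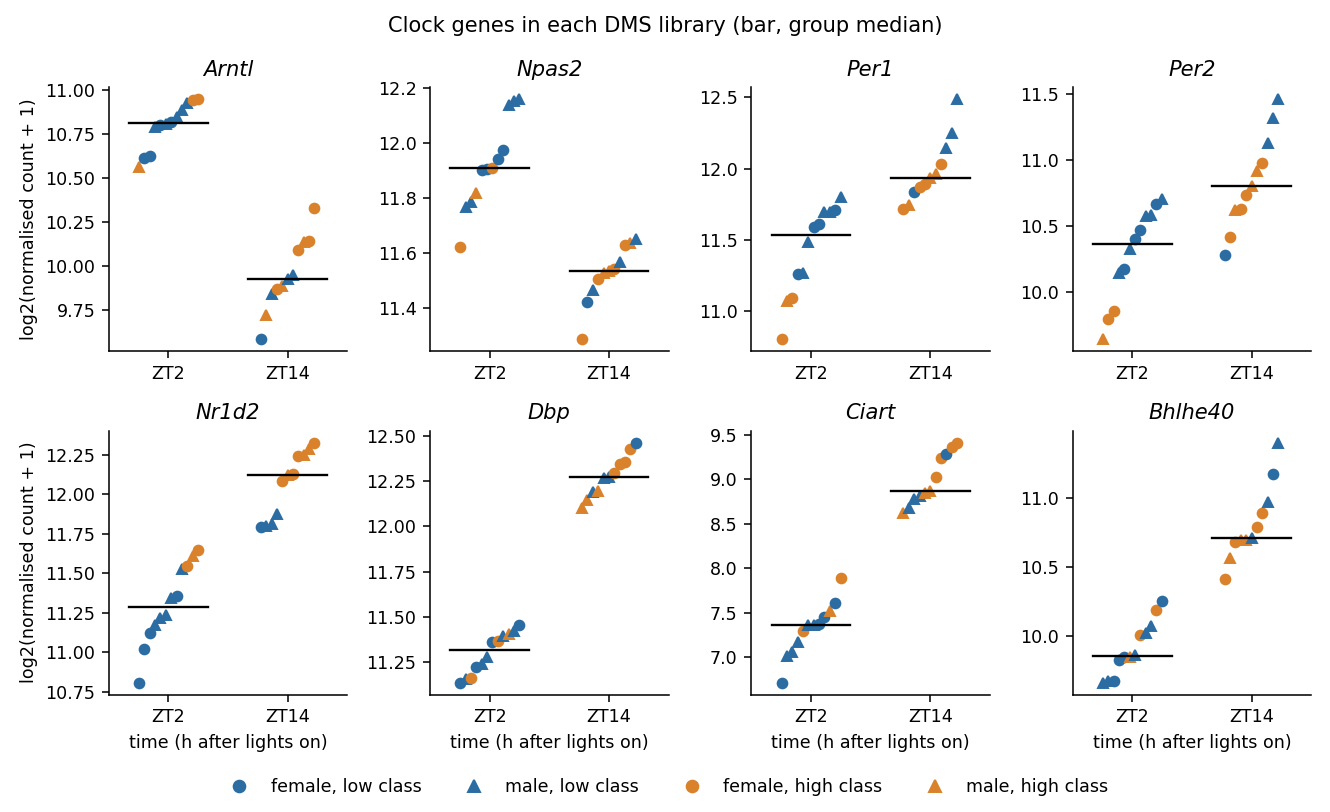
Each point is 1 DMS library, with log2(normalised count + 1) on the y axis, ZT2 and ZT14 on the x axis, sex as the shape and library class as the colour; the bar is the group median. Arntl and Npas2 are lower at ZT14 and the other 6 genes higher, and the high-class libraries are the lowest of their time for Per1 and Per2 at ZT2.

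Outside the clock, the cold-inducible RNA-binding protein gene Rbm3 (chrX:8138975-8145880) more than doubled. RBM3 accumulates on mild cooling and supports synapse maintenance. Its level was 7.74, 8.54 and 9.13 at ZT2 and 9.27, 9.78 and 10.40 at ZT14, without overlap, a difference of 1.02 ± 0.12 (limma, adjusted p = 4.14e-06). The other cold-inducible gene, Cirbp, rose by 0.36 ± 0.09 (adjusted p = 0.0178), with overlapping groups. Its call was lost without ZT14 female 25 (0.31, adjusted p = 0.0699), without ZT2 male 31 (0.34, adjusted p = 0.0540) and with equal sums (adjusted p = 0.0712).

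Many glucocorticoid-responsive genes were higher. Of 14 measured members 9 were called higher, none was lower and all 14 differences were positive, with a median of 0.32. The shares over all genes were 2.62% higher and 2.83% lower. Zbtb16, a zinc-finger transcription factor gene induced by glucocorticoids, lay at 7.27, 7.92 and 8.46 at ZT2 and at 7.97, 9.29 and 9.98 at ZT14. The groups overlapped at the low end of ZT14, and the difference was 1.36 ± 0.19 or 2.56-fold (limma, adjusted p = 6.16e-05). Tsc22d3 (GILZ), a mediator of glucocorticoid action, went from 9.38, 9.62 and 9.96 to 10.25, 10.62 and 11.09. No ZT14 library of Tsc22d3 reached down to the ZT2 range, and the difference was 0.89 ± 0.07 (adjusted p = 6.20e-09). Sgk1, Cdkn1a, Nfkbia, Ddit4, Klf9, Errfi1 and Per1 completed the 9. The genes of the corticosteroid receptors themselves, Nr3c1 and Nr3c2, did not pass (-0.06 ± 0.04 and -0.07 ± 0.06). With equal sums 6 of the 14 were called and 13 differences were positive, and across the fits that left out 1 library 7 to 9 were called. With Slc17a7, a marker discussed further on, in the fit, 7 were called. The class term of the list had a median of 0.09. Per1 and Klf9 also belong to other lists here.

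Of 13 Kruppel-like factor genes 4 were higher and none was lower, beside 2.62% and 2.83% of all genes, and the median difference was 0.11. Klf2, a factor of endothelial and immune cells, rose by 0.73 ± 0.15 (limma, adjusted p = 0.00283), from a median of 7.21 to 7.96. Klf15 and Klf9, which glucocorticoids induce, rose by 0.37 ± 0.07 and 0.27 ± 0.06, and Klf6 was the other. With equal sums 1 of these genes was called higher and 1 member lower.

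Immediate early genes, which neurons transcribe within minutes of activity, gave a median difference of 0.46, which was 0.12 without the class term and 0.23 in the high class, and few single genes passed: 5 of 20 were higher (Nr4a1, Arc, Junb, Egr4 and Per1) and Homer1 was lower. That count rested on few libraries, since 1 gene was called higher without ZT2 male 31, 2 without ZT14 male 22 and 3 without ZT14 male 21, and it was 1 without the class term and 2 with equal sums. Nr4a1, an orphan nuclear receptor gene, lay at 9.54, 11.07 and 12.08 at ZT2 and at 11.03, 11.58 and 12.48 at ZT14. The groups overlapped broadly, and the difference of 0.94 ± 0.21 (limma, adjusted p = 0.00869) was not called without ZT2 male 31 (0.71, adjusted p = 0.0551) or without the class term (0.62, adjusted p = 0.0967). Homer1, a postsynaptic scaffold gene whose short form is activity-induced, fell by 0.30 ± 0.06, a call lost without the class term (-0.19, adjusted p = 0.0977). Fos did not pass (0.25 ± 0.35). These genes also moved with the library class, being lower in the high class by a median of 0.53 (log2). Males alone gave 10 higher members and a median of 0.84, where 109 of all genes were higher and 124 lower. Females alone gave 1 higher, 1 lower and a median of -0.10, where 33 of all genes were higher and 9 lower. The females of ZT14 held 1 low-class library. No gene of the table passed the test of a sex difference, as given further on. With Slc17a7 in the fit 2 members were higher and 1 lower. Of 11 genes that feed back on ERK signalling 2 were higher (Dusp6 and Errfi1) and 1 lower (Spred1). Leaving out 1 library gave 0 to 4 higher and 0 to 1 lower, with none higher or lower without ZT2 male 31 and 4 higher without ZT14 female 25, and Spred1 was at -0.003 without the class term. Dusp6, the ERK phosphatase gene, rose by 0.46 ± 0.11 (adjusted p = 0.0123), a call lost without ZT2 male 31 (0.40, adjusted p = 0.0569).

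**Figure D3:**
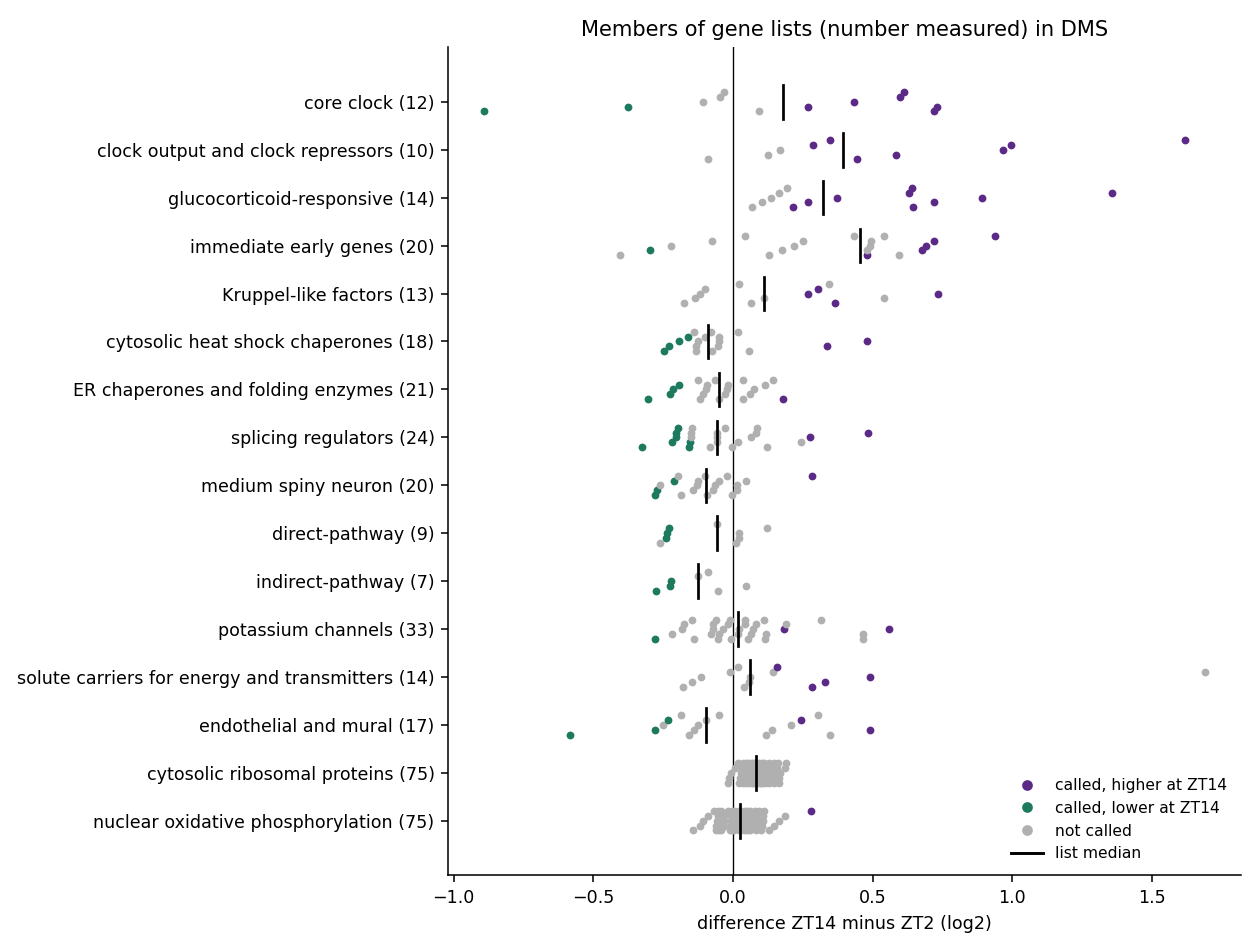
Each point is 1 measured gene of the list named at the left, placed by its ZT14 minus ZT2 difference (log2); purple points were called higher, green points lower, grey points not called, and the vertical tick is the list median. The clock output, glucocorticoid and immediate early lists have medians of 0.40, 0.32 and 0.46 in the fit with the class term (0.12 for the last without it), and the ribosomal protein list lies close to 0 with no call.

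Genes of metabolism and transport were among those called higher. Coq10b, which encodes a coenzyme Q binding protein of mitochondria and whose promoter letters are shown above, went from 8.27, 8.52 and 8.92 to 9.17, 9.55 and 9.91. That separation gave a difference of 0.87 ± 0.07 (limma, adjusted p = 7.18e-09). Mthfd1l, of mitochondrial folate metabolism, differed by 0.77 ± 0.10 and Xdh, the xanthine dehydrogenase gene, by 0.84 ± 0.18, the latter with broad overlap (up to 7.96 at ZT2, from 7.20 at ZT14). Slc2a1, the GLUT1 glucose transporter gene of the blood-brain barrier, rose from a median of 11.04 to 11.62, by 0.49 ± 0.07 (adjusted p = 3.84e-05). Of 14 measured solute carrier genes 4 were higher and none lower: Slc2a1, Slc7a5, Slc6a11 and Slc38a2. The amino acid transporter gene Slc7a5 rose by 0.33 ± 0.07. Slc2a1 and Slc7a5 held in each fit that left out 1 library, while the count of higher members ran from 2 to 5 over those fits. With equal sums Slc2a1 alone of these 4 was called.

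The chloride channel gene Ano2 and the potassium channel genes Kcna5 and Kcnh5 were separated between the times. Ano2, a calcium-activated chloride channel gene, lay at 8.88, 9.65 and 10.01 at ZT2 and at 10.10, 10.78 and 10.92 at ZT14, a difference of 0.93 ± 0.11 (limma, adjusted p = 3.21e-06). Kcna5 (Kv1.5) rose by 0.56 ± 0.08 with a gap between 9.73 and 9.80. Of 33 listed potassium channel genes 2 were higher, Kcna5 and Kcnh3, and 1 was lower, where 5.45% of all genes were called. The list median was 0.02, and the Kcnh3 call held in only 9 of the 23 fits that left out 1 library. Kcnn3 (SK3) was the lower one, at -0.28 ± 0.07, a call lost without ZT14 female 25 (-0.25, adjusted p = 0.0743) or without ZT14 male 21 (-0.26, adjusted p = 0.0520).

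The 10 genes that fell most at ZT14 outside the clock, by the rule for named genes, were Pim1, Car12, Lama3, Inhba, Fgf3, Dlk2, Ntng1, Creb5, Tchh and Fndc9. Ntng1 (netrin-G1), an axonal adhesion molecule, lay at 8.84, 9.28 and 9.51 at ZT2 and at 8.14, 8.42 and 8.75 at ZT14. Those ranges did not meet, and the difference was -0.73 ± 0.08 (limma, adjusted p = 3.05e-06). Inhba, the activin A subunit gene that neuronal activity induces, went from 8.57, 8.78 and 9.11 to 7.07, 7.999 and 8.42, a difference of -0.78 ± 0.11 (adjusted p = 6.94e-05). Car12, a membrane carbonic anhydrase gene, fell by 0.79 ± 0.11 (adjusted p = 8.39e-05), with groups that overlapped between 9.76 and 10.20.

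Pim1, a short-lived serine/threonine kinase gene, differed by -0.87 ± 0.19 (limma, adjusted p = 0.00679). Lama3, a laminin chain gene, differed by -0.78 ± 0.18, the growth factor gene Fgf3 by -0.74 ± 0.16 and Fndc9 by -0.70 ± 0.12. These 4 calls held in each fit that left out 1 library. Dlk2 (-0.73 ± 0.20, adjusted p = 0.0295) did not: it was lost without ZT14 female 25, ZT2 female 31, ZT2 female 33 or ZT14 male 23 (adjusted p = 0.0512, 0.0510, 0.0689 and 0.0837). Creb5 (-0.72 ± 0.20, adjusted p = 0.0307), a CREB family factor gene, was lost without ZT2 female 31, ZT2 female 33, ZT14 male 21, ZT14 male 23 or ZT2 male 31 (adjusted p = 0.0562, 0.0508, 0.0700, 0.0702 and 0.0730). Tchh (-0.70 ± 0.17) was lost without ZT2 male 31 (-0.57, adjusted p = 0.0651), and without the class term it was -1.48. With the mitochondrial share in place of the class the calls of Dlk2, Creb5 and Tchh were also lost. Collagen IV genes of the vascular basement membrane fell as well: Col4a1 by 0.57 ± 0.13 (adjusted p = 0.00771) and Col4a2 by 0.42 ± 0.11, the latter not called without ZT2 female 31, ZT14 male 22 or ZT2 male 31 (adjusted p = 0.0602, 0.0640 and 0.0697).

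Among the largest called increases, Ccn2 and C1ql3 lost their calls with a cortical marker in the fit. That marker, Slc17a7, had the largest positive difference of all genes (1.69 ± 0.74) but did not pass (limma, adjusted p = 0.199). It was added to the fit after the data were seen. Its level was uneven between the times, so a lost call cannot tell cortical tissue from time. A part of cortical tissue in these differences was not tested. Ccn2 (CTGF), a matrix-associated signalling gene, was at 4.85, 6.13 and 9.07 at ZT2 and at 6.63, 8.26 and 9.18 at ZT14, a difference of 1.58 ± 0.45 (limma, adjusted p = 0.0371). C1ql3, a synaptic C1q-like protein gene, was at 6.01, 6.65 and 7.03 and at 6.53, 6.91 and 9.79, a difference of 0.99 ± 0.28 (adjusted p = 0.0377). ZT14 male 21, ZT14 female 25 and ZT14 male 23 held the 3 highest C1ql3 values (9.79, 8.27 and 8.49) and had Slc17a7 at 12.34, 11.16 and 10.33, while Slc17a7 was at 5.75, 7.51 and 10.88 over ZT2. High Slc17a7 did not always come with high C1ql3: C1ql3 was 6.79 in ZT2 female 9, with Slc17a7 at 10.88, and 7.504 and 6.89 in ZT14 males 42 and 24, with Slc17a7 at 10.57 and 10.07. At ZT2 the highest Slc17a7 and the highest Ccn2 value (9.07) were in the same library, female 9. Of 7 cortical markers 4 were measured and none passed. Their summed level, in CPM of the normalised counts, was 38.01 to 128 at ZT2 and 23.4 to 275 at ZT14.

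With the level of Slc17a7 in the fit, the difference was 0.75 for Ccn2 (limma, adjusted p = 0.171) and 0.55 for C1ql3 (adjusted p = 0.206), and across all genes 251 were higher and 232 lower. The call of Ccn2 was also lost on leaving out any 1 of 9 libraries: ZT14 female 25, ZT14 female 44, ZT14 male 21, ZT14 male 23, ZT2 female 33 or ZT2 males 6, 7, 8 or 31 (adjusted p up to 0.101). That of C1ql3 was lost without ZT14 female 25, ZT14 male 21, ZT14 male 23 or ZT2 males 6, 7 or 9 (adjusted p up to 0.131). The 15 called clock genes, Rbm3, Cirbp, Zbtb16 and Tsc22d3 held their calls with Slc17a7 in the fit.

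Protein-folding genes did not move as a block, and their counts stand beside 2.62% higher and 2.83% lower over all genes. Among 18 cytosolic heat shock genes the J-domain co-chaperone genes Dnajb1 and Dnajb4 rose, by 0.48 ± 0.07 and 0.34 ± 0.05, and Hspa8, Hspa4, Hsph1 and Ahsa1 were lower. Of those 4, 1 was called without ZT14 female 25 and 2 without ZT2 female 33, and Hspa4 held in each such fit. Hspa4, an HSP110 exchange factor gene, fell by 0.19 ± 0.04 (limma, adjusted p = 0.00322), from a median of 13.29 to 13.03. Of 21 endoplasmic reticulum chaperone genes 1 was higher and 4 lower: Calr fell by 0.30 ± 0.06, Hsp90b1 (GRP94) by 0.20 ± 0.04 and Pdia6 by 0.22 ± 0.05, and Fkbp2 was the other. Without the class term Calr and Pdia6 did not pass, and differed by -0.13 (adjusted p = 0.334) and -0.11 (adjusted p = 0.297). Herpud1, which aids degradation of endoplasmic reticulum proteins, rose by 0.26 ± 0.06, a call lost with equal sums.

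Splicing regulators leaned downwards, with 7 lower and 2 higher of 24 and a median of -0.06. Over all genes 2.83% were lower and 2.62% higher, with a median of -0.003. The lower ones were Srsf5, Srsf6 and the ribonucleoprotein genes Hnrnpa2b1, Hnrnpc, Hnrnpd, Hnrnpdl and Hnrnph1, and the higher ones Tra2b and Clk1. Hnrnpa2b1 fell from a median of 13.15 to 12.84, by 0.20 ± 0.03 (limma, adjusted p = 0.000154), and Tra2b rose by 0.28 ± 0.06. With equal sums 6 were lower and none higher.

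Genes of the striatal projection neurons shifted little, and those that passed were mostly lower at ZT14. Over all genes 2.83% were lower and 2.62% higher. In punches, fewer cells of a type and less RNA per cell cannot be told apart. Adora2a (an adenosine receptor gene of indirect-pathway neurons) fell by 0.27 ± 0.06 (limma, adjusted p = 0.00609), from 12.70, 12.95 and 13.17 to 12.36, 12.77 and 12.90. The indirect-pathway list had 3 lower of 7 (Drd2, Penk and Adora2a) and the direct-pathway list 3 lower of 9 (Ebf1, Sfxn1 and Slc35d3), with medians of -0.12 and -0.06. Drd2 differed by -0.23 ± 0.06 (adjusted p = 0.0281), a call lost without ZT14 female 25, ZT14 male 21 or ZT2 male 31 (adjusted p = 0.108, 0.0775 and 0.0854). The Drd2 call was also lost with equal sums and with the mitochondrial share in place of the class. Penk differed by -0.22 ± 0.06, a call lost without ZT14 female 25, ZT2 female 33, ZT14 male 21 or ZT2 male 31 (adjusted p = 0.0601, 0.0607, 0.0695 and 0.0827). The Penk call was also lost without the class term. Drd1 (0.02 ± 0.06), Tac1 (0.01 ± 0.07) and Ppp1r1b (0.05 ± 0.06) did not pass. Of 20 medium spiny neuron genes 3 were lower (Foxp1, Rgs9 and Gnal) and 1 higher (Strip2). The count of 3 was 1 without ZT14 female 25 or ZT14 male 21 and 2 without ZT2 male 31, and 7 in the low class alone. Rgs9, a striatal G protein regulator gene, differed by -0.27 ± 0.06 and held in each fit that left out 1 library. The direct-pathway count of 3 was 1 without ZT2 female 33 or ZT14 male 21, and the indirect-pathway count 1 without ZT14 female 25, ZT14 male 21 or ZT2 male 31. Of the 23 fits that left out 1 library, Ebf1 was called in only 7, Sfxn1 in 19 and Slc35d3 in all 23. With Slc17a7 in the fit none of the 20 medium spiny neuron genes was called lower, nor any direct-pathway gene, and 1 indirect-pathway gene was.

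Synaptic receptor lists held 1 call each, where 5.45% of all genes were called. Grik5, a kainate receptor subunit gene, rose by 0.37 ± 0.06 (limma, adjusted p = 0.000247) and was the only one of 14 ionotropic glutamate receptor genes called. Gabra2 fell by 0.28 ± 0.06 (adjusted p = 0.00284), 1 of 12 GABA-A subunit genes, and Grm4 by 0.29 ± 0.06 (adjusted p = 0.00221), 1 of 6 metabotropic glutamate receptor genes. None of 18 cyclic AMP and calcium signalling genes passed. Unc13a, the vesicle priming factor gene, fell by 0.36 ± 0.09, and without the class term by 0.70, and the call was lost with the mitochondrial share in place of the class (-0.23, adjusted p = 0.0884).

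Large housekeeping groups held 1 call in all with the class in the fit. None of 75 cytosolic ribosomal protein genes, 31 proteasome genes or 13 mitochondrially encoded messages passed, and 1 of 75 nuclear oxidative phosphorylation genes did (Ndufb4). Ribosomal protein genes differed strongly between the classes, being higher in the high class by a median of 0.84 (log2). Their difference with time was positive for 72 of the 75, with a median of 0.08 with the class term and 0.40 without it. In the low class alone 30 of the 75 were higher at ZT14, where 234 of all 12101 genes were higher. In the high class alone none was, where 30 of all genes were higher. The medians of the list in the low and the high class were 0.18 and -0.04. Class and time were unevenly crossed, and the part of each in the differences of this list was not tested.

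Markers of other cells gave scattered calls, beside 5.45% called over all genes. Of 17 endothelial and mural genes 2 were higher (Slc2a1 and Slco1a4) and 3 lower (Cldn5, Pecam1 and Tek). The count of 3 was 1 without ZT2 male 31. Cldn5, the tight junction claudin gene, fell by 0.58 ± 0.11 (limma, adjusted p = 0.00196), a call lost without the class term (-0.40, adjusted p = 0.0560). Of 15 astrocyte, 14 oligodendrocyte, 10 precursor and 15 microglia genes 1 each was called: Fgfr3 and Tspan2 higher, Olig2 and Cx3cr1 lower. Each of these 4 calls was lost on leaving out 1 of several libraries, among them ZT14 female 25 for Fgfr3 (adjusted p = 0.0989) and Tspan2 (0.107) and ZT2 male 31 for Olig2 (0.0795) and Cx3cr1 (0.0754). No interneuron, ependymal, blood, meningeal or striatal position marker passed.

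Over the 6 times of the DMS table, ZT2 and ZT14 were close to opposite extremes for several of these genes, though not for every clock gene. Median Ciart was 7.36 at ZT2, 9.19 at ZT10 and 8.87 at ZT14, and median Arntl was 10.81, 9.70 and 9.93 at the same times. By these medians both had turned before ZT14, but the libraries overlapped. Ciart ran from 8.51 to 9.57 at ZT10 and from 8.61 to 9.41 at ZT14, and Arntl from 9.35 to 10.03 and from 9.58 to 10.33. ZT2 and ZT14 held the extreme medians of Tef (13.004 and 13.46), Npas2 (11.91 and 11.54) and Per3 (9.35 and 9.70), and Per1, Nr1d2, Hlf and Bhlhe41 had their highest medians at ZT14. Tsc22d3 had its highest median at ZT14 (10.62, against 10.26 at ZT10 and 10.37 at ZT18), as did Zbtb16 (9.29, against 8.50 and 8.22). Inhba, Ntng1 and Car12 had their lowest medians at ZT14, at 7.999, 8.42 and 9.45, and their highest at ZT2. Per3 was close to its ZT14 median at ZT18 (9.63). These levels are a description over 11 or 12 libraries per time, of values without the class term, and were not tested.

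**Figure D4:**
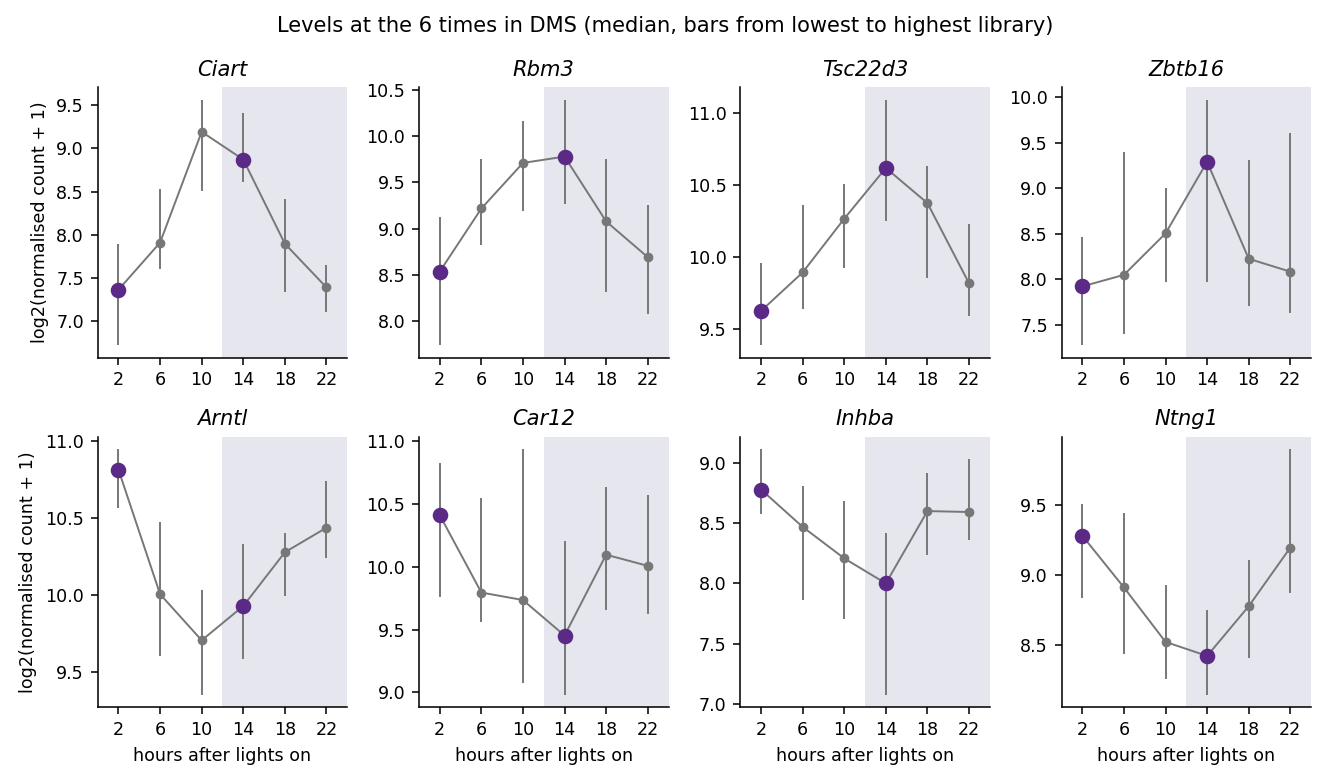
Points are the median log2(normalised count + 1) of the 11 or 12 DMS libraries at each of 6 times, bars run from the lowest to the highest library, purple points mark ZT2 and ZT14, and the dark phase is shaded. By these medians Ciart and Arntl turn at ZT10, whereas Tsc22d3 and Zbtb16 are highest and Inhba, Ntng1 and Car12 lowest at ZT14.

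The difference between the times was not shown to depend on sex or on library class. For none of the 12101 genes (0.0%) did the difference itself differ between males and females (limma, smallest adjusted p = 0.676; 719 genes at an unadjusted p under 0.05), nor between the classes (0.0%; smallest adjusted p = 0.541; 927 genes). Ciart differed by 1.80 ± 0.15 in females and 1.46 ± 0.14 in males, Dbp by 1.11 ± 0.06 and 0.90 ± 0.06, and Arntl by -0.84 ± 0.11 and -0.93 ± 0.10. In the low and the high class Rbm3 differed by 1.04 ± 0.16 and 1.00 ± 0.19 and Coq10b by 0.88 ± 0.10 and 0.86 ± 0.11. C1ql3, with 1.66 ± 0.32 in the low class and 0.12 ± 0.37 in the high class, was less even (unadjusted p = 0.00418, adjusted p = 0.541). With 3 high-class libraries at ZT2, only a large class difference could have been detected.

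The dorsolateral striatum (DLS), the neighbouring region associated with habits, was set beside DMS with 11 libraries of ZT2 and 12 of ZT14, and 17 animals gave both regions. The tables were normalised separately, so only differences within each were compared, by limma over both tables together with animals as blocks. No class term was fitted in DLS, where 1321 of 11365 shared genes (11.6%) were called. In DMS 10.5% of its table was called without that term and 5.45% with it. No gene (0.0%) passed the test that the DMS and DLS differences were unequal (smallest adjusted p = 0.158; 571 genes at an unadjusted p under 0.05). Arntl differed by -0.90 ± 0.07 in DMS and -0.88 ± 0.07 in DLS, and Tsc22d3 by 0.91 ± 0.08 and 0.89 ± 0.07.

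For other genes the DMS value was the smaller one without passing that test. Ciart differed by 1.63 ± 0.12 in DMS and 2.23 ± 0.11 in DLS (unadjusted p = 0.000489, adjusted p = 0.527), Per1 by 0.71 ± 0.11 and 1.21 ± 0.10, and Per2 by 0.72 ± 0.13 and 1.32 ± 0.12. Ano2 (0.94 ± 0.10 and 1.44 ± 0.09) and Kcna5 (0.55 ± 0.10 and 1.04 ± 0.09) ran alike. Ccn2 and C1ql3 were at -0.17 ± 0.44 and -0.37 ± 0.35 in DLS, where Slc17a7 differed by -0.33 against 1.69 in DMS. A link of either gene to cortical tissue was not tested. For neither gene did the regions differ beyond the threshold (adjusted p = 0.815 for both), and C1ql3 did not pass in DMS in the joint fit (adjusted p = 0.154).

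**Figure D5:**
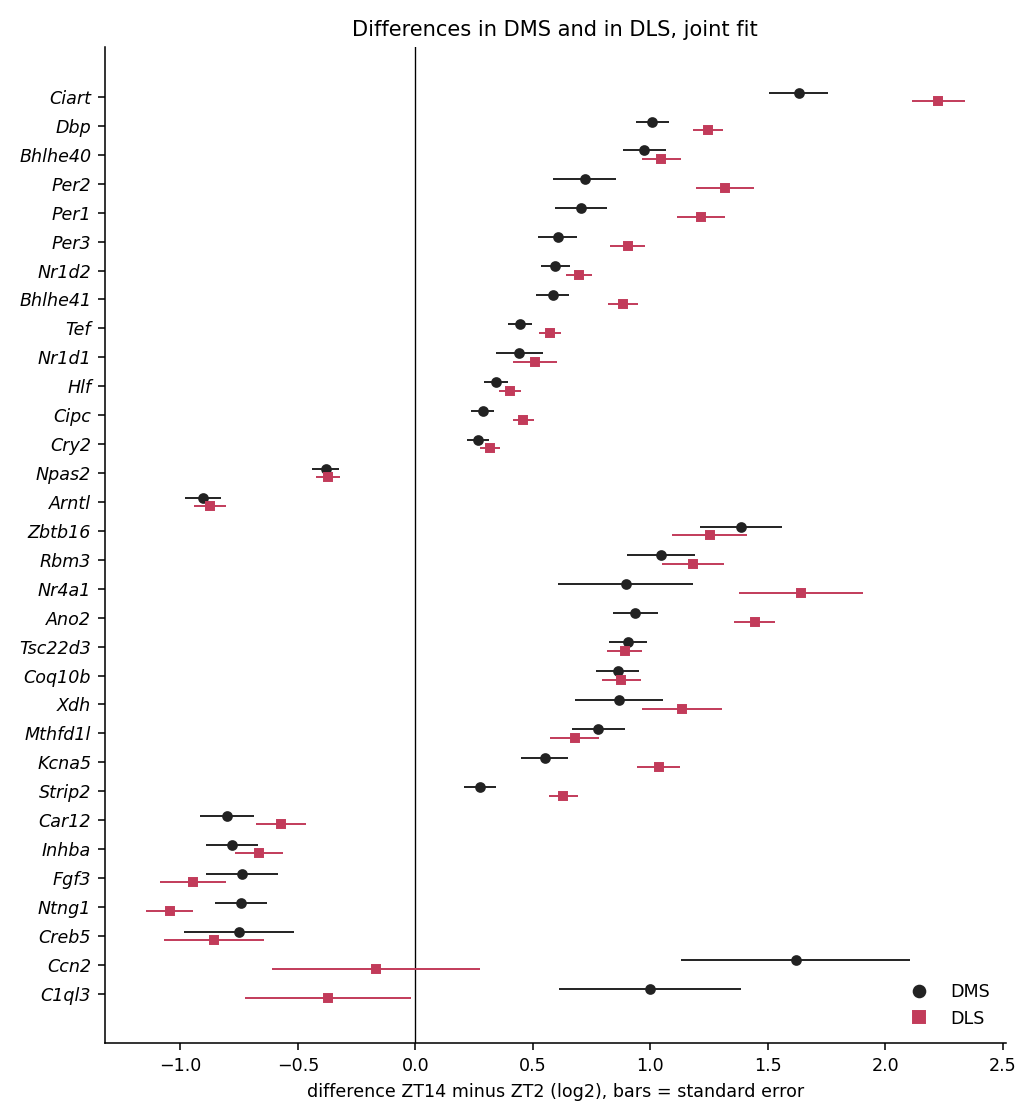
For each gene the ZT14 minus ZT2 difference (log2) of the joint fit is drawn for DMS (black circles) and DLS (red squares), with the standard error as the bar. Arntl, Npas2, Tsc22d3 and Coq10b coincide, Ciart, Per1, Per2, Ano2 and Kcna5 lie further from 0 in DLS, and Ccn2 and C1ql3 have positive values in DMS and negative ones in DLS, a difference that did not pass (adjusted p = 0.815 for both).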

How the data were processed

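Per the series design text and the labels' protocols, the authors aligned 75 bp paired reads of stranded total RNA libraries to mouse GRCm38 with HISAT2 2.1.0, counted them with HTSeq 0.10.0 in union mode, filtered and normalised each region separately with DESeq2, and took log2. The submitters' processing notes also list FastQC, Trimmomatic and GRCh38, a human build. The deposited log2 values are log2(normalised count + 1); all are whole reads within 0.01 reads. Whether counting used strand is not given in the sources used here, so overlapping, antisense and paralogous genes are uncertain. Symbols came from GENCODE M21.

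Differences were fitted with limma 3.58.1 (R 4.3.3) with a variance trend, with sex and library class, over all 12101 genes. DMS and DLS were fitted jointly, with a block for the animal (correlation 0.164) and the class term in DMS alone. Recovered reads were also fitted with voom. The code was tested on simulated data. The members and gene lists were chosen with earlier results of these data known. Genes named are the 10 largest called differences in each direction with a mean of at least 6 and 1 sign in both sexes and classes (no predicted genes), all clock genes, and up to 3 called members of each list by adjusted p; others named were chosen after their values were seen. Total reads of 36652198 to 53144675 per library set the precision, low genes being least certain. Animals are separate, per the labels. ZT2 and ZT14 share no animal number. One member of the splicing list is not reported here and was left out of that list.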

Additional observations from a re-analysis of the deposited data

Results flagged for a closer look

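Each named gene was examined within each sex at each time for a highest or lowest library far from its neighbours (Dixon's test). Of 376 groups over 94 genes, 23 (6.12%) held such a library, where chance gives about 1 in 20. All values are log2(normalised count + 1), with the nearest other library of the group in parentheses.

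ZT2 male 31, the only high-class male at ZT2, accounted for 9 of the 23. It was lowest for Arntl at 10.56 (10.79), Clock at 11.59 (11.96), Foxp1 at 13.48 (14.08), Hspa4 at 13.09 (13.24), Kcnn3 at 10.56 (11.20), Tchh at 7.79 (8.92) and Unc13a at 11.87 (12.68). The same library was highest for Slco1a4 at 10.80 (10.20) and Spred1 at 13.83 (13.54).

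Among other ZT2 males, male 10 was highest for Ccn2 at 8.19 (6.07) and male 6 for Ebf1 at 9.89 (9.61). Among ZT2 females, female 10 was highest for Hlf at 12.49 (12.28) and for Klf9 at 12.25 (12.12), female 9 was highest for Inhba at 9.11 (8.78), and female 31 was lowest for Npas2 at 11.62 (11.90) and for Ntng1 at 8.84 (9.28).

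At ZT14, female 25, the only low-class female of that time, was highest for C1ql3 at 8.27 (6.91) and Dlk2 at 6.50 (5.37) and lowest for Slc2a1 at 11.31 (11.98). Female 43 was lowest for Grik5 at 11.92 (12.29). Male 24 was lowest for Cx3cr1 at 9.83 (10.08) and for Lama3 at 6.06 (6.61), and male 23 was lowest for Mthfd1l at 8.20 (8.63).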

How the results depend on the processing

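The counts of higher and lower genes (317 and 342) depended on the scaling, the class term and which libraries entered. They were 573 and 696 without the class term, 542 and 665 with the range of animal numbers in place of the class, 478 and 593 with all 70 DMS libraries, 30 and 5 in the high class alone, 33 and 9 in females alone, 109 and 124 in males alone, and 61 and 357 with equal sums. Leaving out 1 library gave 202 to 358 higher and 228 to 397 lower genes. They were within 1.5 times under the other settings, among them voom on the recovered reads (317 and 352), a pseudocount of 8 (318 and 341) and, added after seeing the data, the Slc17a7 level as a covariate (251 and 232). The animal numbers did not pair libraries: residuals of the 7 pairs of like-numbered libraries correlated from -0.46 to 0.11, and with them as a block 330 genes were higher and 352 lower.

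The test of a class difference gave 0 to 1 genes and that of DMS against DLS 0 to 1 when 1 library was left out (1 gene without ZT14 female 43 in both, and 1 without ZT14 male 22 for the class), and that of a sex difference 0. No named gene reversed its sign in a called difference under these settings, though genes outside the clock were chosen by their differences in these same libraries. The mitochondrial ribosomal RNA took up to 52.6% of a library, which limits depth for other genes in the high class.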

Other observations

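Lists of lipid synthesis and growth signalling held shares of calls near the 5.45% of all genes. Of 21 cholesterol synthesis genes 1 was higher, Fdft1 (squalene synthase), by 0.30 ± 0.05 (limma, adjusted p = 0.00149), and with equal sums it was not called. Of 17 insulin and mTOR signalling genes 1 was higher, the forkhead factor gene Foxo3, by 0.22 ± 0.05 (adjusted p = 0.00869), a call lost without the class term or with equal sums. Of 12 unfolded protein response regulators Herpud1 was higher, and Atf6 and Ddit3 were lower. With the mitochondrial share in place of the class neither was called lower. The Atf6 call was lost without ZT14 female 25 or ZT14 male 23 (adjusted p = 0.0689 and 0.0604), and the Ddit3 call without ZT2 female 31, ZT2 female 33, ZT14 male 21, ZT2 male 31 or ZT2 male 8 (adjusted p up to 0.0996).

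Promoter windows were also searched on both strands for the cyclic AMP response element (TGACGTCA) and the heat shock element (GAANNTTC). The first occurred in 3.80% of all windows, 4.78% of the higher set and 3.38% of the lower set, and the second in 6.75%, 5.98% and 9.02%.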
